A study of Ovis aries with 16 samples.

Results

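P-selectin (SELP) is an adhesion receptor that endothelial cells and platelets keep in storage granules and move to the cell surface when they are activated. On the endothelial surface it binds carbohydrate ligands carried on leukocyte glycoproteins such as PSGL-1 and lets passing leukocytes tether and roll, the step that comes before firm adhesion through integrins and ICAM-1. Stored protein reaches the surface within minutes, whereas synthesis of new transcript follows inflammatory cytokines and bacterial products in some species. The arrays measured the transcript, so the values below concern SELP RNA and give no information on the stored or surface protein.

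SELP, 1 of 1033 genes named on the array, was represented by 2 of its 15008 probes, both found by the gene name SELP in the scanner files, and both were among the 12249 probes bright enough to be tested. RNA came from the hypothalamus of late-gestation Suffolk sheep fetuses, all with chronic catheters, 24 h after the start of 30 min of normoxia or of maternal ventilatory hypoxia, which left 23.5 h of recovery in normoxia. Fetuses had received intravenous saline or ketamine, an anesthetic that blocks N-methyl-D-aspartate receptors, before the stimulus. The groups were normoxia with saline (NC, n = 3), normoxia with ketamine (NK, n = 4), hypoxia with saline (HC, n = 5) and hypoxia with ketamine (HK, n = 4), and each of the 16 arrays held RNA of 1 fetus. Most fetuses of the study were twins, and which of them shared a ewe is not known from the labels. The whole hypothalamus was extracted, so a change in the number of endothelial cells or platelets and a change in the RNA of each cell cannot be told apart. Platelets also hold P-selectin, but none of the 14 platelet genes and none of the 9 genes of pericytes and smooth muscle looked for had a named probe on the array, so those cells could not be followed.

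The arrays were alike as a whole. The share of probes marked as well above background ran from 71.7% to 80.6% over the arrays, the 75th percentile of the signal ran from 1248 to 1597 intensity units, and Pearson correlations between arrays across probes lay between 0.956 and 0.987. The arrays sat on 2 slides scanned on 1 day, with every group present on both. All 7 hypothalamic peptide genes named on the array were tested, and 6 of them (POMC, OXT, NPY, SST, PMCH and GNRH1) were well above background on all 16 arrays, as was AGRP on 15. PECAM1, the endothelial adhesion molecule CD31, was well above background on all 16 arrays. The defining endothelial genes CDH5, VWF and CLDN5 had no named probe, and no array measured TEK well above background, so the endothelial content rests on the other genes of the list.

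The first 30 of the 60 bases of each SELP probe follow, because all that follows rests on these 2 short sequences.

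A_70_P039517: cagctttcccgaaaagacttgattataact

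A_70_P039516: taaaggacatggaatttcctttagatttgt

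The start positions that the files give for them on the transcript differ by 69 bases, more than the probe length, and the longest run of bases that the full probes share is 5. No other probe on the array has the sequence of either one. Their GC content was 35% for A_70_P039517 and 43.3% for A_70_P039516. The files name no genome build for them and do not say whether they lie in coding or untranslated sequence. The probes are therefore separate readings of SELP within the same RNA samples and not replicates of a condition.

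SELP RNA was near the detection limit in the normoxic fetuses and well above it in most of the hypoxic ones. Levels are given as log2 of the processed signal relative to the 75th percentile of each array, so that 0 is the level of a probe at that percentile. With the brighter probe, A_70_P039517, the NC fetuses had log2 levels of -4.98, -5.33 and -6.88. The NK fetuses had levels of -6.71, -5.61, -5.40 and -6.52. These 7 values form a single low range, with the NC and NK groups overlapping.

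The HC fetuses had levels of -0.23, -0.16, -2.16, 1.37 and -3.97 with the same probe. The HK fetuses had levels of -1.58, -1.74, -5.56 and -2.43. Every HC fetus lay above every normoxic fetus. In HK, 3 fetuses lay within the HC range, and the remaining fetus, HK replicate 3, lay among the normoxic values. The spread among the HC fetuses ran over 5.34 log2 units, from replicate 5 to replicate 4, compared with 1.89 in NC and 1.31 in NK.

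**Figure D1:**
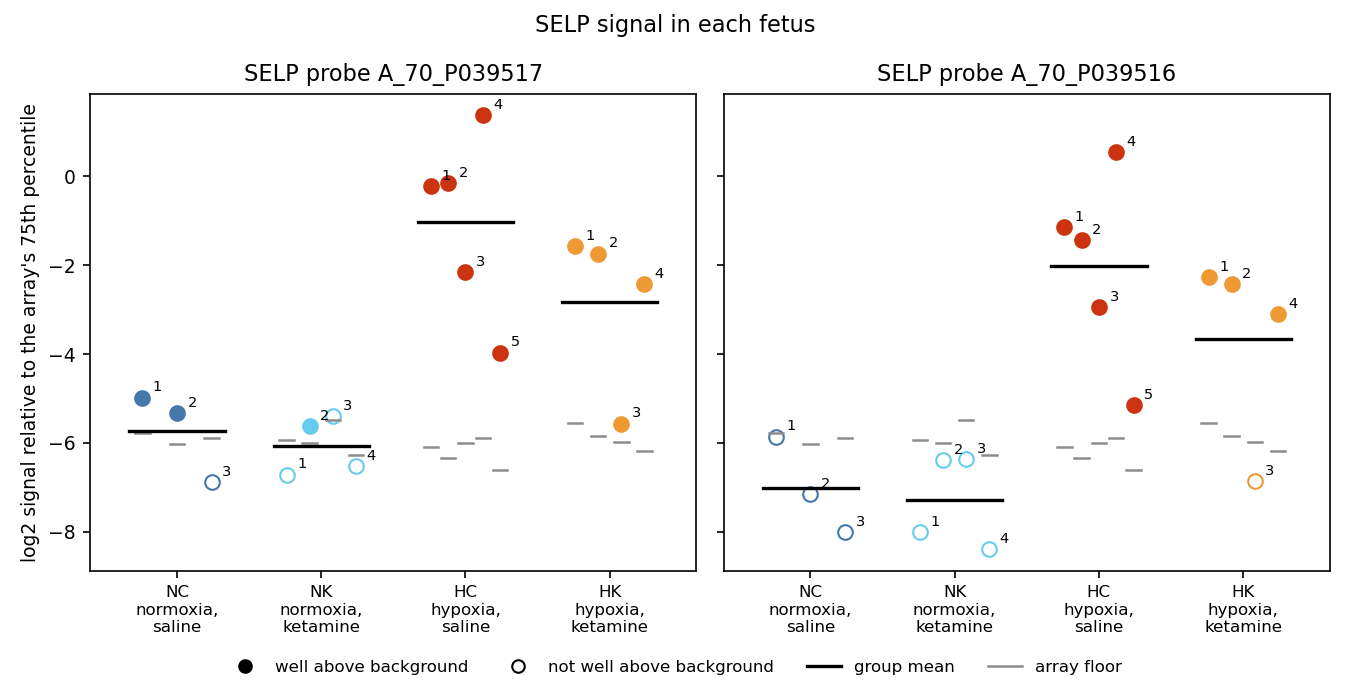
SELP log2 signal relative to the 75th percentile of each array (vertical axis) for the 4 groups (horizontal axis), with 1 panel per probe, 1 numbered point per fetus, black lines for group means and grey ticks for the floor of each array, the dimmest signal marked as well above background there. All 5 HC points are filled, that is well above background, and lie between -3.97 and 1.37 with the brighter probe, while the normoxic points lie at or below -4.98.

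In scanner terms, the processed signal of A_70_P039517 was 3554 intensity units in HC replicate 4, 1427 in replicate 2, 1066 in replicate 1, 335 in replicate 3 and 88.9 in replicate 5. It was 439, 383, 29.2 and 250.3 in the 4 HK fetuses and between 11.9 and 42.3 in the 7 normoxic fetuses. The scanner software gives each processed signal an error of its own, which was 9.51 for the 88.9 of HC replicate 5 and 5.79 for the 29.2 of HK replicate 3. The weakest HC reading was thus above the strongest normoxic reading of 42.3, whose own error was 7.32, and the weakest HK reading was not.

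The software's mark for a spot well above background followed the same order. For A_70_P039517 it was set on 2 of 3 NC arrays, 1 of 4 NK arrays, 5 of 5 HC arrays and 4 of 4 HK arrays. For A_70_P039516 it was set on none of the 3 NC and 4 NK arrays, on 5 of 5 HC arrays and on 3 of 4 HK arrays. It passed the filter on dim probes through the hypoxic arrays alone, so its normoxic level is a bound and not a measurement. On 3 normoxic arrays the software had replaced its processed signal by a surrogate value.

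The raw spots show the same without any normalization. The local background around the A_70_P039517 spots had a median of 15 to 27 units on every array, and the raw spot signal of HC replicate 4 was 204 times that background. The raw signal was 6.99 times the background in HC replicate 5 and 4.86 times in HK replicate 3, against 3.09 to 4.86 times in the normoxic fetuses.

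**Figure D2:**
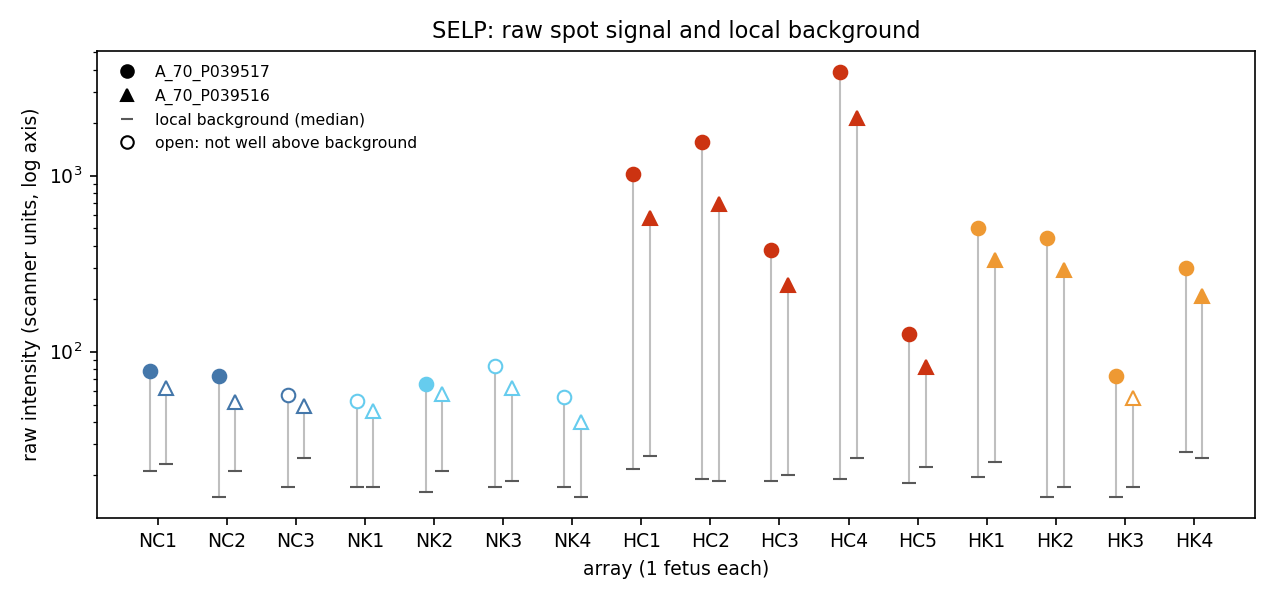
Raw spot intensity (vertical log axis, scanner units) of both SELP probes on each array (horizontal axis), with a grey line down to the median local background of the spot; open points were not marked as well above background. The local background stays between 15 and 27 units throughout, and the HC and HK spots rise above the normoxic range of 3.09 to 4.86 times the background with A_70_P039517, except that of HK replicate 3, which was 4.86 times its background.

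The second probe repeated the pattern within the same RNA. A_70_P039516 gave log2 levels of -1.14, -1.43, -2.94, 0.54 and -5.15 in HC and of -2.27, -2.43, -6.85 and -3.10 in HK. It gave -5.86, -7.15 and -8.00 in NC and -8.00, -6.39, -6.36 and -8.39 in NK. The order of the hypoxic fetuses was the same except that HC replicates 1 and 2 changed places. Pearson's r between the probes was 0.993 over 16 arrays and 0.990 over the 8 arrays on which both were well above background.

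SELP came to attention through its difference between HC and NC, so this difference is described here and not tested. The mean log2 level of A_70_P039517 was -1.03 ± 2.07 (SD, n = 5) in HC and -5.73 ± 1.01 (SD, n = 3) in NC, a fitted difference of 4.70 ± 1.09 (SE). Since 1 of the 3 NC arrays did not measure this probe well above background, its fold is given as a bound, which depends on the scale and the floor taken. On the scale used here HC was at least 20.6-fold higher than NC. For A_70_P039516, which no NC array measured well above background, HC was at least 14.6-fold higher. For these bounds, each NC array contributed its floor, the dimmest signal that the software still marked as well above background there, unless the SELP signal was higher, and the mean of these values was set against the HC mean. With the floor at the 1st percentile of the signals so marked, the bounds were 19.2-fold and 11.4-fold. They do not carry over to the authors' log2 table, where the difference for A_70_P039517 was 2.31 log2 units. Across the array, 517 of 12249 probes (4.22%) were higher in HC at an unadjusted p under 0.05, and for 303 probes (2.47%) all HC values lay above all NC values. Both SELP probes were among the latter, and SELP was chosen from this comparison.

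The difference between hypoxia and normoxia under ketamine compares 8 fetuses outside the HC and NC groups. It is not fully apart from the choice of SELP, since the results of all 4 groups were known by then and the limma fit takes its spread from all 16 arrays. SELP was higher in HK than in NK by 3.24 ± 1.06 log2 units (SE, limma), with group means of -2.83 ± 1.86 (SD, n = 4) and -6.06 ± 0.65 (SD, n = 4). Only 1 of the 4 NK arrays measured it well above background, and by the same bound HK was at least 7.89-fold higher, or 6.80-fold with the floor at the 1st percentile. The unadjusted p from limma was 0.00875. After Benjamini-Hochberg adjustment over all 12249 probes, of which 1 (0.00816%) had an adjusted p under 0.05, the p from limma was 0.390, and the exact two-sided permutation test over the 8 arrays gave p = 0.0571, where the smallest value that 70 rearrangements can give is 0.0286. The rise therefore passed the unadjusted threshold of the study's methods and neither the adjusted nor the exact one, and HK replicate 3 overlapped the NK group.

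No NK array measured A_70_P039516 well above background, so no test is given. With the floor in place of dimmer NK signals HK was 4.80-fold higher, or 3.86-fold with the floor at the 1st percentile. This is not a strict bound, since HK replicate 3 was itself not well above background with this probe. Across the array, 1065 of 12249 probes (8.69%) passed the unadjusted threshold between HK and NK and 292 of them (2.38%) were higher in HK. Without HK replicate 3 the difference for A_70_P039517 was 4.15 and the unadjusted p from limma 0.000999, and without any other single array it lay between 2.82 and 3.46. In the authors' own log2 table, where the 7 normoxic fetuses lay between 7.32 and 7.59, the difference was smaller, 1.18 with an unadjusted limma p of 0.0858, and that between HC and NC was 2.31.

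The mean SELP level was lower with ketamine than with saline after hypoxia, within the spread of the fetuses, and both normoxic means were near background. HK lay 1.80 ± 1.01 log2 units (SE) below HC with A_70_P039517, which is 3.48-fold, and 1.64 ± 1.12 below with A_70_P039516. With A_70_P039517 the HK minus HC difference was -0.89 without HK replicate 3 and -2.53 without HC replicate 5, the extremes when 1 array was left out. HK and HC overlapped, since HC replicate 5 lay below 3 of the 4 HK fetuses. NK and NC differed by -0.33 ± 1.14 with A_70_P039517, a range in which most readings were not well above background. The ketamine difference after hypoxia minus that after normoxia was -1.46 ± 1.52 log2 units for A_70_P039517. Across the array, 466 of 12249 probes (3.8%) passed the unadjusted threshold for this interaction term. These comparisons share the HC or NC arrays with the difference that SELP was chosen for and were not tested. The order of the mean levels was HC, HK, NC and NK, and of its steps only that from HK to NC exceeded the SD of both neighbouring groups, although HK replicate 3 lay below 2 of the NC fetuses.

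HC exceeded NC and HK exceeded NK on both slides. On slide 1 HC exceeded NC by 4.96 log2 units (2 arrays against 2) and on slide 2 by 5.29 (3 against 1), with A_70_P039517. HK exceeded NK by 4.51 on slide 1 and by 1.97 on slide 2 (2 arrays against 2 on each), and HK replicate 3 was on slide 2. With slide as a block in the limma fit the difference between HK and NK stayed at 3.24 with an unadjusted p of 0.00574. HK lay below HC by 1.46 on slide 1 and 2.41 on slide 2. NK lay below NC by 1.01 on slide 1 and above it by 0.91 on slide 2, where NC had a single array.

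**Figure D3:**
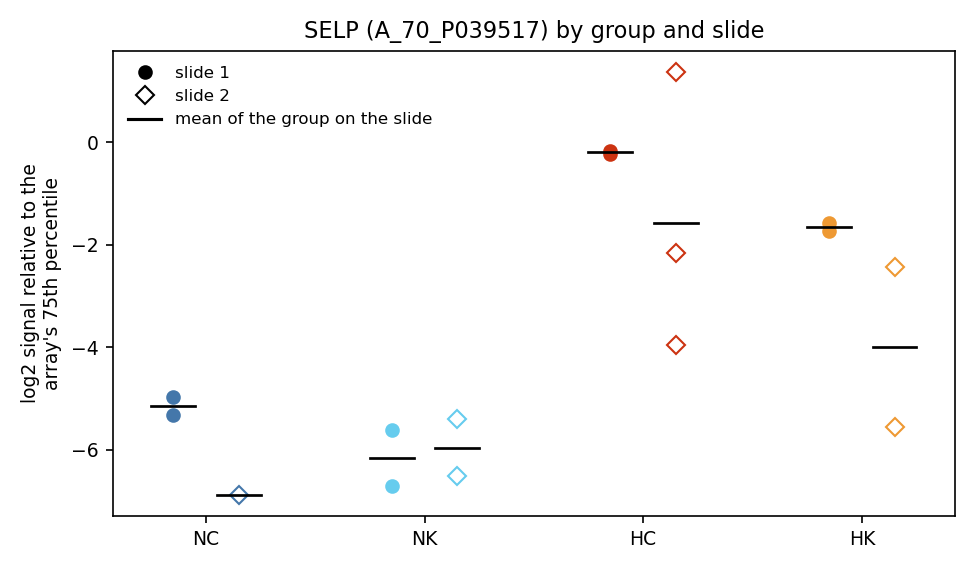
SELP log2 signal of A_70_P039517 relative to the 75th percentile of each array (vertical axis) by group (horizontal axis) and slide, filled for slide 1 and open for slide 2, with a black line for the mean of each group on each slide. HC lies above NC by 4.96 on slide 1 and 5.29 on slide 2, and HK above NK by 4.51 and 1.97.

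The other endothelial genes had smaller HC minus NC differences than SELP. SELP was chosen for this difference and they were not, so its place above them follows in part from the choice. Of 58 endothelial genes looked for, 21 besides SELP were named on the array and 18 were tested, each by its brightest probe. TEK, ACE and F11R were too dim to test. Between HC and NC, limma called 3 of the 18 at an unadjusted p under 0.05, against 8.15% of all tested probes, and none after adjustment. ICAM1 and ABCB1 were higher in HC, as 4.22% of all tested probes were, and KDR was lower, as 3.93% were. The median difference of the 18 genes was 0.08 log2 units, against -0.03 over all tested probes. Between HK and NK only ABCB1 of the 18 passed the unadjusted threshold (8.69% of all tested probes did), and the median difference was 0.26 against -0.01 over all tested probes. Averaged over the 18 genes, the log2 level ranged from -2.99 to -2.80 in NC, from -2.94 to -2.83 in NK, from -2.85 to -2.58 in HC and from -2.99 to -2.33 in HK. These averages and the medians include SELE and TJP1, which were well above background on only 3 and 6 of 16 arrays.

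**Figure D4:**
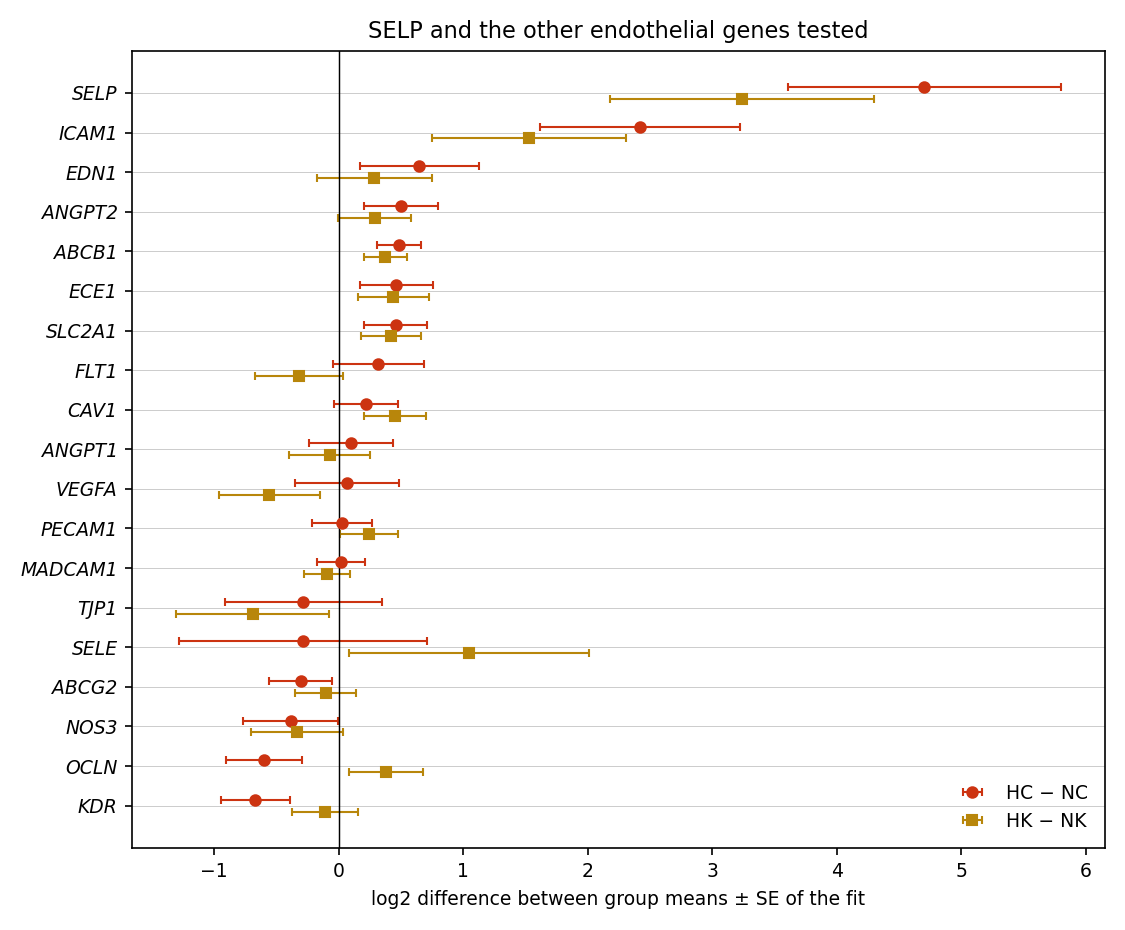
Differences between group means in log2 units (horizontal axis) for SELP and the 18 other tested endothelial genes (vertical axis, brightest probe of each), with bars for the SE of the limma fit, circles for HC minus NC and squares for HK minus NK. SELP, chosen for its HC minus NC difference and near background in normoxia, lies at 4.70 and 3.24. ICAM1 lies at 2.42 and 1.53, and the HC minus NC differences of the other 17 genes lie between -0.67 and 0.65.

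ICAM1, the endothelial ligand for the leukocyte integrins that act after rolling, had the second largest difference of the list. Its log2 levels in HC were -3.05, -2.25, -4.10, -0.80 and -5.32, and in NC -5.24, -5.90 and -5.43. It was higher in HC by 2.42 ± 0.80 log2 units or 5.34-fold (limma, unadjusted p = 0.00954, adjusted p = 0.442), although HC replicate 5 lay within the NC values. ICAM1 was well above background on 2 of 3 NC and 2 of 4 NK arrays and on every hypoxic array. The size of its HC minus NC difference, and so the fold, depended on the processing. It ranged from 0.89 to 2.97 log2 units over the alternatives tried. HK exceeded NK by 1.53 ± 0.78 (limma, unadjusted p = 0.0701). Within slides, ICAM1 was higher in HC by 2.92 on slide 1 and 2.02 on slide 2. The HC fetus with the highest ICAM1 was replicate 4 and the one with the lowest was replicate 5, as for SELP.

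The other selectin on the array behaved differently. SELE, or E-selectin, is made by activated endothelium and takes part in rolling together with P-selectin. It was well above background on 3 arrays only, NC replicate 2, HC replicate 5 and HK replicate 2, where its log2 levels were -5.63, -4.63 and -4.03. On the other 13 arrays, among them HC replicate 4 with the highest SELP, it gave -7.48 or less, so no fold change is given. The main P-selectin ligand gene SELPLG had no named probe. ST3GAL4, a sialyltransferase that helps build selectin ligands, was well above background on all 16 arrays and differed between HC and NC by 0.06 ± 0.09 and between HK and NK by 0.01 ± 0.09 (limma, unadjusted p = 0.540 and 0.927).

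Genes of the vessel wall and barrier showed smaller differences. PECAM1, which marks endothelial junctions, differed by 0.03 ± 0.24 log2 units between HC and NC (limma, unadjusted p = 0.915) and by 0.24 ± 0.23 between HK and NK. ABCB1, the efflux pump P-glycoprotein of the blood-brain barrier, was higher in HC than in NC by 0.48 ± 0.18 (unadjusted p = 0.0173) and in HK than in NK by 0.37 ± 0.17 (unadjusted p = 0.0488). The second of these rested on HK replicate 1, without which the difference was 0.17 with an unadjusted limma p of 0.180, and the call was also lost without NK replicate 2, 3 or 4. ABCG2, another efflux pump, had differences of -0.31 ± 0.25 and -0.11 ± 0.25 in the same comparisons. SLC2A1, the glucose transporter GLUT1, had 0.46 ± 0.25 and 0.42 ± 0.24, neither past the threshold.

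KDR, a receptor for vascular endothelial growth factor, was lower in HC than in NC by 0.67 log2 units (SE 0.28, limma, unadjusted p = 0.0297). It was well above background on all 3 NC arrays but on 3 of 5 HC arrays, the call was lost without HC replicate 2, 3 or 4 or NC replicate 1 or 3, and its other probe gave -0.13 ± 0.53. VEGFA, the growth factor itself, differed by 0.07 ± 0.42. OCLN, a tight junction protein, was higher in HK than in HC by 0.91 ± 0.28 (unadjusted p = 0.00641), the only 1 of the 18 genes to pass the threshold there (7.04% of all tested probes did), and is named after its value was seen. No gene of the 18 passed the unadjusted threshold between NK and NC, where 1.09% of all tested probes did.

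Several genes were measured by more than 1 probe, and these did not always give the same call. ECE1, which encodes the endothelin-converting enzyme, was not called by its brightest probe in either comparison. Its dimmer probe was higher in HC by 0.53 ± 0.16 (limma, unadjusted p = 0.00544) and in HK by 0.50 ± 0.16 (unadjusted p = 0.00659). The dimmer probe of ANGPT2, which encodes angiopoietin-2, was higher in HC by 0.97 ± 0.34 (unadjusted p = 0.0134), while the brightest gave 0.50 ± 0.30. Both probes of ABCB1 passed the threshold in both comparisons.

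The storage granules that hold P-selectin also carry von Willebrand factor, angiopoietin-2, endothelin and interleukin-8. Of 16 genes of this cargo and of endothelial activation, 7 were tested. Between HC and NC all 7 differences were positive and 3 genes passed the unadjusted threshold (PTGS2, PTX3 and NOS2), against 8.15% of all tested probes. The tested genes of the cargo named above, ANGPT2, EDN1 and CXCL8, were not called by their brightest probes. The median difference of the 7 was 1.08 log2 units against -0.03 over all tested probes.

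EDN1, the precursor of endothelin 1 and named PPET-1 on the array, had log2 levels of -0.08, -1.09, -1.27, 0.09 and -2.59 in HC, -1.34, -1.80 and -1.77 in NC, -1.05, -1.36, -2.07 and -1.20 in HK and -1.85, -1.92, -1.15 and -1.91 in NK. The HC minus NC difference was 0.65 ± 0.48 (limma, unadjusted p = 0.198). HC replicates 4 and 1 were the highest of the 16 fetuses for EDN1 and replicate 5 was the lowest. CXCL8, the neutrophil chemoattractant interleukin-8, had a larger and less certain difference of 3.24 ± 1.68 (unadjusted p = 0.0754). Its HC levels ran from -6.61 in replicate 5 to 1.48 in replicate 4. The CXCL8 probe was well above background on 11 of 16 arrays. NC replicate 3 (-7.95) and HC replicate 5 were not among them, so the size of the difference rests in part on readings near background.

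PTGS2, the inducible cyclooxygenase COX-2, was higher in HC than in NC by 2.95 ± 0.55 log2 units or 7.73-fold (limma, unadjusted p = 9.93e-05, adjusted p = 0.272). It was higher in HK than in NK by 1.32 ± 0.53 (unadjusted p = 0.0257), and that call was lost without HK replicate 2 or 4 or NK replicate 2 or 3. It was lower in HK than in HC by 1.14 ± 0.50 (unadjusted p = 0.0402). PTX3, a pattern-recognition protein of inflamed vessels, was higher in HC by 2.30 ± 0.71 (unadjusted p = 0.00602). NOS2, the inducible nitric oxide synthase, was higher in HC by 0.68 ± 0.25 (unadjusted p = 0.0155) and lower in HK than in HC by 0.63 ± 0.23. The other NOS2 probe differed less, with mean log2 levels of -5.33 in NC, -5.18 in HC and -5.47 in HK. The NOS2 call between HC and NC was lost without NC replicate 1 and under 3 other settings, among them the authors' log2 table, where the difference was 0.11 (limma, unadjusted p = 0.123). IL6 was likewise lower in HK than in HC, by 1.59 ± 0.60 (unadjusted p = 0.0195), which makes 3 of the 7 genes against 7.04% of all tested probes.

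Among the lists with at least 5 tested genes, that of signals known to raise or mobilise P-selectin had the largest share of calls between HC and NC. The lists were drawn up with earlier results of these data known, so their order is a description and not a test. Any part of these signals in the SELP difference was not tested. Of 29 such ligands, receptors and transducers, 14 were named on the array and 11 were tested. Between HC and NC, 9 of the 11 were higher at an unadjusted p under 0.05, against 4.22% of all tested probes, none was lower, and none passed after adjustment. Between HK and NK, limma called none of the 11 at an unadjusted p under 0.05, against 8.69% of all tested probes. None passed after adjustment. SELP, which was chosen from these data, passed the unadjusted threshold there but not the adjusted one (limma, adjusted p = 0.390). Between HK and HC, 6 of the 11 were lower in HK (C5AR1, CD14, IL13RA1, NFKBIA, TLR2 and TNF), against 3.79% of all tested probes. This comparison uses the same HC arrays as HC minus NC, so the counts are not independent. The median difference of the 11 genes was 0.79 log2 units for HC minus NC, 0.00 for HK minus NK and -0.74 for HK minus HC.

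Among the ligands, TNF, the cytokine best known to act on endothelium, was higher in HC than in NC by 1.70 ± 0.62 log2 units (limma, unadjusted p = 0.0157). IL1B, which encodes interleukin-1 beta, was higher by 1.08 ± 0.42 (unadjusted p = 0.0216). HC replicates 2 and 4 had the highest TNF (-2.12 and -2.30), and replicates 4 and 1 the highest IL1B (0.17 and -0.58). Between HK and NK, TNF differed by -0.07 ± 0.60 and IL1B by 0.32 ± 0.40, neither past the threshold.

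Among the receptors, TLR2, which recognises bacterial lipoproteins, was higher in HC by 1.16 ± 0.29 (unadjusted p = 0.00159) and CD14, its co-receptor on myeloid cells, by 1.34 ± 0.59 (unadjusted p = 0.0407). TLR4, the lipopolysaccharide receptor, was higher by 0.79 ± 0.30, IL13RA1 by 0.55 ± 0.23, C5AR1, the receptor of the complement fragment C5a, by 0.55 ± 0.17, and TNFRSF1A, the main receptor for tumor necrosis factor, by 0.41 ± 0.18. NFKBIA encodes the inhibitor of NF-kB, which NF-kB itself induces. It was higher in HC by 1.37 ± 0.36 log2 units or 2.58-fold (limma, unadjusted p = 0.00195, adjusted p = 0.342). The calls for CD14, IL13RA1 and TNFRSF1A were each lost when any of several arrays was left out. That for IL1B was lost without HC replicate 1 or NC replicate 2, and those for TLR4 and TNF without NC replicate 3.

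The genes of the later steps of leukocyte recruitment, and the markers of leukocytes, were sparse on the array. Of 9 tested genes of integrins and recruitment, ICAM1 and ITGAM, the alpha chain of the Mac-1 integrin, were higher in HC at the unadjusted threshold, as 4.22% of all tested probes were. CXCL1, also among the 9, was saturated on all 16 arrays and could show no change. ITGAM was higher by 0.74 ± 0.33 (limma, unadjusted p = 0.0412) and lost that call under many settings, among them slide as a block (limma, unadjusted p = 0.0553). The other ITGAM probe differed less, with mean log2 levels of -5.24 in NC and -4.98 in HC. Of 15 neutrophil and monocyte genes, 4 were named and 3 tested, of which CD14 and FCGR1A, the high-affinity IgG receptor, were higher in HC (4.22% of all tested probes were) and LTF was not called. FCGR1A was higher by 1.01 ± 0.42 (limma, unadjusted p = 0.0327), and the call was lost without HC replicate 2 or 4 or NC replicate 1 or 2, and with the arrays of HC and NC alone. Averaged over those 3 genes, the log2 level ran from -4.03 to -3.58 in NC, -4.04 to -3.33 in NK, -3.61 to -1.69 in HC and -4.45 to -2.64 in HK. Of 12 microglial and macrophage genes, 2 were tested and both, CD86 and ITGAM, were higher in HC, again against 4.22% of all tested probes. CD86 was higher by 0.75 ± 0.33 (limma, unadjusted p = 0.0362), and the call was lost without HC replicate 2, 3 or 4, without any 1 of the NC arrays, and with the arrays of HC and NC alone. Their mean level ran from -4.09 to -3.71 in NC, -4.27 to -3.45 in NK, -4.02 to -2.23 in HC and -3.74 to -3.17 in HK. The leukocyte markers that moved between HC and NC stand beside the SELP difference, and their part in it was not tested.

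Among markers of other tissue components, SLC1A2 alone was called between HC and NC, against 8.15% of all tested probes. By limma, none of the 7 hypothalamic peptide genes passed the unadjusted threshold between HC and NC or between HK and NK. Of all tested probes, 8.15% and 8.69% did, so the absence of calls among so few genes does not show stability. None of the 7 passed after adjustment. Their largest differences between HC and NC were those of AGRP, the agouti-related peptide (1.33 ± 1.36), and NPY, neuropeptide Y (0.81 ± 0.71). HBB, the only red cell gene named, differed by 0.28 between HC and NC with its brightest probe. That difference was -0.19 on slide 1 and 1.03 on slide 2. The dimmer HBB probe went the other way, with mean log2 levels of 1.58 in NC and 1.31 in HC. SLC1A2, the astrocytic glutamate transporter, was lower in HC by 1.13 log2 units (SE 0.45, limma, unadjusted p = 0.0243), and was higher in HK than in HC by 1.28 ± 0.41 (limma, unadjusted p = 0.00759), but it was well above background on 6 of 16 arrays only. GFAP, the astrocytic intermediate filament, differed by 0.49 ± 0.34 between HC and NC and was not called, and AQP4, the water channel aquaporin-4, was saturated on 14 of 16 arrays and could show no change.

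Across the 16 fetuses the pattern of SELP was most like those of NFKBIA and PTGS2. Pearson's r was computed between A_70_P039517 and the brightest probe of each of 871 other named genes and had a median of -0.03 over them, with a 95th percentile of 0.69. Since SELP was chosen for a difference between groups that many of these genes share, r is a description and carries no test. The likest gene was NFKBIA, with r = 0.927 and Spearman's rho = 0.826 over 16 arrays, and r = 0.843 when each array was taken as its deviation from the group mean. PTGS2 followed with r = 0.924 (rho = 0.762, within groups 0.778). PDXK, which encodes pyridoxal kinase, had r = 0.920 (rho = 0.865, within groups 0.802).

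The next 5 were LOC100137069, described in the files as a mitochondrial methylenetetrahydrofolate dehydrogenase (r = 0.895), the transcription factors CEBPB (0.881) and IRF1 (0.876), LOC100037678, described as a serine protease 23 precursor (0.865), and ICAM1 (0.864). Leaving out the pair of arrays farthest from the median of SELP, HC replicates 4 and 2, gave r of 0.896 for NFKBIA, 0.882 for PTGS2 and 0.761 for ICAM1. Over the 9 hypoxic arrays alone r was 0.925 for NFKBIA, 0.905 for PTGS2, 0.928 for LOC100137069 and 0.831 for ICAM1. Over the 7 normoxic arrays, where SELP was near background, the same 4 genes gave 0.09, -0.61, -0.25 and -0.04. The likeness thus held among the hypoxic fetuses and not within the normoxic ones.

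Among the endothelial genes EDN1 came next after ICAM1, with r = 0.773 (rho = 0.732) over 16 arrays, 0.854 within groups and 0.882 over the 9 hypoxic arrays. PECAM1 gave r = 0.147, SELE 0.03, KDR -0.50 and NOS3, the endothelial nitric oxide synthase, -0.62. The lowest r of all named genes belonged to PTCH1, the hedgehog receptor (-0.799), LOC100125624, described as the Notch ligand jagged 1 (-0.787), and CBX5, a heterochromatin protein (-0.772).

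**Figure D5:**
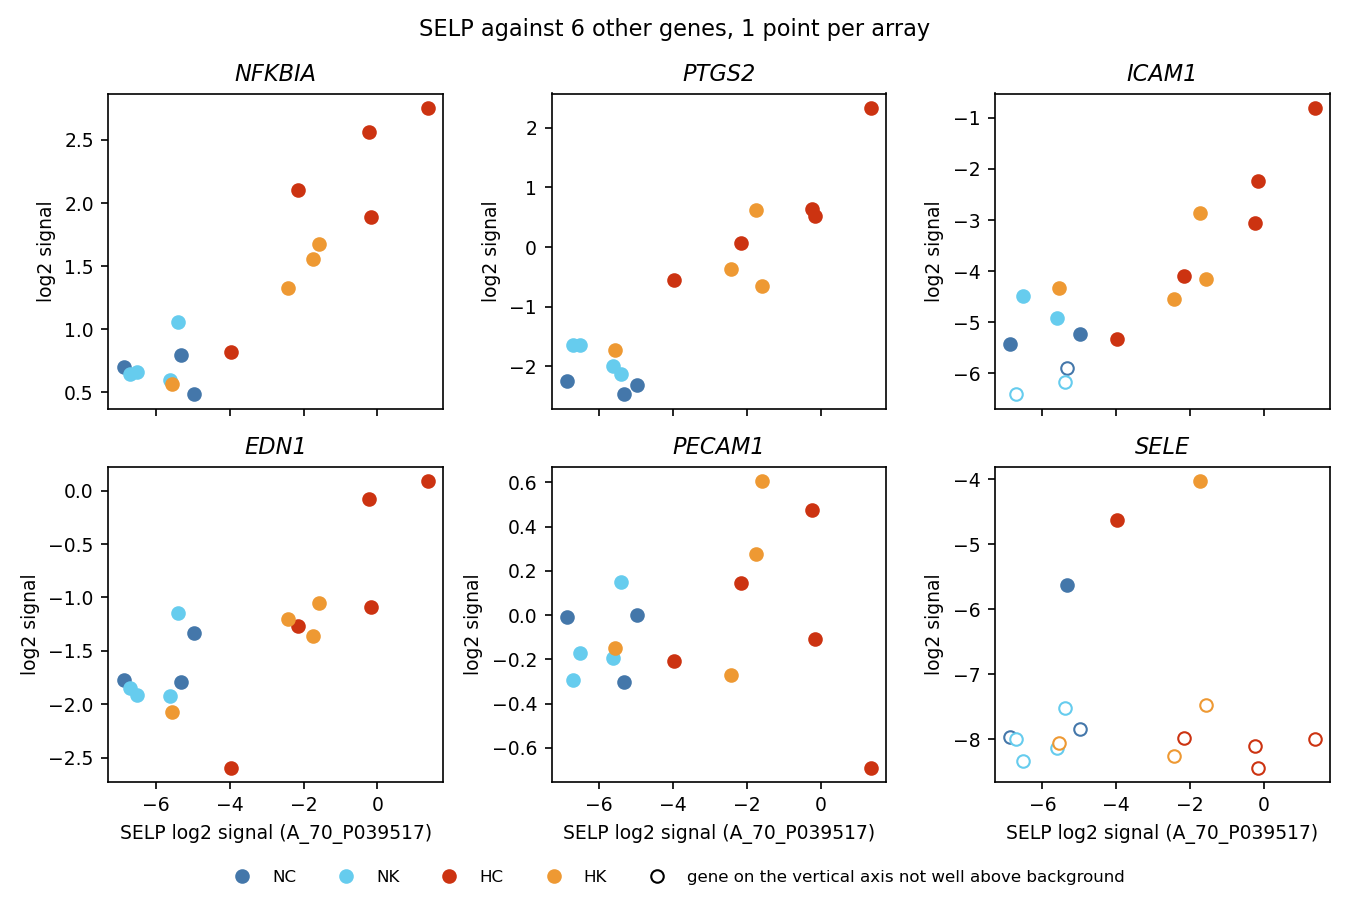
Log2 signal of 6 genes (vertical axes) against SELP probe A_70_P039517 (horizontal axis), both relative to the 75th percentile of the array, with 1 point per array colored by group and open where the gene on the vertical axis was not well above background. NFKBIA, PTGS2 and ICAM1 rise with SELP among the hypoxic fetuses (r = 0.925, 0.905 and 0.831 over 9 arrays), as does EDN1 (0.882), whereas PECAM1 and SELE do not (-0.05 and -0.26).

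HC replicate 4, with the highest SELP, also had the highest NFKBIA (2.75), PTGS2 (2.34), ICAM1 (-0.80) and EDN1 (0.09) of the 16 fetuses, and the lowest PECAM1 (-0.69). HC replicate 5, with the lowest SELP in its group, had the lowest NFKBIA (0.82), PTGS2 (-0.54), ICAM1 (-5.32) and EDN1 (-2.59) of the 5 HC fetuses. HK replicate 3, with the lowest SELP in HK, had the lowest NFKBIA (0.56), PTGS2 (-1.72) and EDN1 (-2.07) of its group, whereas the lowest ICAM1 in HK was that of replicate 4 (-4.54), with replicate 3 at -4.33.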

How the data were processed

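RNA from 16 fetal hypothalami was labelled with cyanine 3 and hybridized by the authors to 1-color Agilent sheep arrays. The deposited scanner files, written by Feature Extraction 10.1.1.1 per the file headers, give linear intensities of 15744 spots, which the software had background-subtracted and detrended array by array, with no normalization between arrays, together with marks for spots well above background, outlying or saturated and for surrogate values. The authors deposited a second table of log2 values of the same arrays. Within each array its ranks equalled those of median foreground minus median local background (Spearman's rho = 1), its SELP values ran from 7.22 to 11.8, and its normalization is not given in the sources used here. The number of arrays limits the precision.

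Control spots (536) and outlier spots (0.0801%) were dropped and saturated ones kept. Levels are log2 processed signals less the array's 75th percentile, averaged over the spots of a probe. A probe was tested where 3 or more arrays measured it well above background, which left 12249 of 15008. A gene name was given for 1656 probes, and 726 of 750 RefSeq accessions were found in the sheep RefSeq gene table used (ARS-UI_Ramb_v3.0). Groups came from the sample labels. In R 4.3.3 with limma 3.58.1, 1 model with the 4 groups was fitted to the 16 arrays with empirical Bayes moderation, two-sided, and probes were called at an unadjusted p under 0.05, which the study's methods used. Benjamini-Hochberg values were taken over all tested probes. The procedure was tested on simulated data. Each gene was read by its brightest probe.

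SELP, the 12 gene lists and the rules were chosen with earlier results of these data known. The genes named are the SELP probes, list genes called between HC and NC or HK and NK, all tested selectin genes and ligands, the 6 brightest endothelial genes, and the 8 most and 3 least like SELP by Pearson's r, with further genes named after their values were seen. The symbol TF was not read as tissue factor, since it also names transferrin. The alternatives tried were quantile normalization, normexp correction (offset 50) with quantile normalization, the deposited log2 table, no filter or a filter of 8 arrays on dim probes, dim signals raised to the floor, the most changed probe of a gene, slide and replicate number as blocks, single slides, the 2 groups alone and leaving out each array.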

Additional observations from a re-analysis of the deposited data

Results flagged for a closer look

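SELP itself had no fetus that stood apart by the gap test within NK, HC or HK, for either probe. HK replicate 3 (-5.56 with A_70_P039517) nevertheless lay below the other HK fetuses, whose levels were -2.43 or more. Of 114 gene and group sets examined (38 probes in NK, HC and HK), 9 had a fetus whose gap to the nearest other exceeded the critical value of Dixon's test, where chance gives about 1 in 20. They were HK replicate 1 for KDR (log2 level -5.56) and ABCB1 (-0.56), NK replicate 4 and HK replicate 2 for TNF (-5.65 and -3.17), HK replicate 2 for TLR4 (-4.62), NK replicate 3 for NFKBIA (1.05) and EDN1 (-1.15), HC replicate 4 for OCLN (-4.67) and HC replicate 5 for SELE (-4.63).

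The ketamine difference after hypoxia differed from that after normoxia for 7 of 36 genes by limma's interaction term at an unadjusted p under 0.05, against 3.8% of all tested probes, and for none after adjustment (adjusted p = 0.994 for each). Most of the 36 were picked for a call between HC and NC or HK and NK, or for their r with SELP. The interaction term is built from the same group means, so the choice alone can raise this share, which is a description only. In log2 units the difference between the ketamine effects in limma's fit was -1.01 for IL13RA1 (unadjusted p = 0.00655), -1.34 for FCGR1A (unadjusted p = 0.0404), -0.94 for NOS2 (unadjusted p = 0.0166), 1.52 for SLC1A2 (unadjusted p = 0.0287), -0.72 for C5AR1 (unadjusted p = 0.0083), -1.03 for TLR2 (unadjusted p = 0.0248) and 0.98 for OCLN (unadjusted p = 0.0386).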

How the results depend on the processing

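The SELP differences kept their direction under all alternatives except NK minus NC. That difference was 0.91 on slide 2 alone and reached 0.04 when 1 array was left out. With A_70_P039516 it reached 0.29 when 1 array was left out. HC minus NC (4.70) was 2.31 in the deposited log2 table and 2.71 with normexp correction, and 4.10 to 5.44 when 1 array was left out. HK minus NK (3.24) had unadjusted limma p-values from 0.000999 to 0.0858. It was 1.18 in the deposited table (p = 0.0858), its exact permutation p was 0.0571, and it ran from 2.82 to 4.15 when 1 array was left out, each below the threshold. HK minus HC ran from -2.53 to -0.89 and NK minus NC from -0.91 to 0.04 when 1 array was left out. The cause was not tested.

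Counts of the 18 endothelial genes moved more. The share of all tested probes called was not computed under the changed settings. The counts below therefore describe dependence on the processing only and are not a result about endothelial genes. With the most changed probe of a gene, 5 were called for HC minus NC and 2 for HK minus NK, and without the filter on dim probes 0 for HK minus NK. Leaving out 1 array gave 2 to 7 for HC minus NC (7 without HC replicate 5), 0 to 2 for HK minus NK (0 without HK replicate 1 or NK replicate 2 or 3, 2 without HK replicate 2 or 3) and 1 to 4 for HK minus HC (4 without HC replicate 5, 2 without HC replicate 2 or HK replicate 1 or 2). Calls for ICAM1, NFKBIA, PTGS2, PTX3, TLR2 and C5AR1 between HC and NC held under all 17 alternatives each. Same-numbered fetuses deviated together in 15 of 21 pairs (r over 0.1, range -0.06 to 0.35) and not in every one. All such pairs shared a slide, and their mean r of 0.196 was close to the 0.194 of differently numbered fetuses of other groups on the same slide, so the numbers were not taken as pairs. With the replicate block, 7 endothelial genes were called for HC minus NC and 4 for HK minus HC, and HK minus NK of SELP stayed at 3.24 (limma, unadjusted p = 0.00156). Signals near background limit what can be said of SELP in normoxia.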

Other observations

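IL6, which signals to endothelium as well as to leukocytes, had log2 levels of -1.58, -4.68, -4.65, -1.83 and -4.53 in HC, so that HC replicates 1 and 4 stood above the remaining 14 fetuses. The same 2 fetuses had the highest CXCL8 of all 16 (0.82 and 1.48) and the highest EDN1 (-0.08 and 0.09). HC replicate 2, whose SELP level of -0.16 was close to that of replicate 1 (-0.23), had CXCL8 at -2.31 and IL6 at -4.68. In turn HC replicate 2 had the highest TNF (-2.12) and CD14 (-0.18) of the 16 fetuses. Fetuses with like SELP levels thus differed in which cytokine genes were high.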
